A study of Mus musculus with 14 samples.

Results

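The interleukin-1 (IL-1) family ligands Il1a, Il1b, Il1rn and Il33 and the receptor genes Il1r1, Il1r2, Il1rap, Il1rl1, Il18r1 and Il18rap were taken by name, 10 of the 49943 RefSeq genes of the mouse assembly GRCm38.p6 on chromosomes 1 to 19, X and Y. For each, every peak of the crotonylated histone mark H3K9cr and of the acetylated mark H3K9ac was listed across the gene body and 20 kb outside each end. The peaks came from 14 ChIP-seq libraries of mouse kidney, an assay in which an antibody against the mark pulls down the DNA that is then sequenced. Kidneys were from wild-type (WT) mice and from ACSS2-/- mice, which lack the acyl-CoA synthetase ACSS2 in the whole body, and were either controls or had undergone unilateral ureteric obstruction (UUO), the ligation of the left ureter that leads to fibrosis. H3K9cr had 2 libraries in each of the 4 groups, while H3K9ac had 4 libraries from obstructed kidneys, 2 per genotype, but a single control library per genotype. The study's C57BL/6 J mice were bought at 6 to 8 weeks of age, and the time after surgery of these libraries was not given in the sources used here. Whole kidney tissue was used, in which fewer cells of a type and less of a mark per cell cannot be told apart. The peak lists carry positions and no height, so the measure was the number of base pairs (bp) that peaks covered in a gene's window. Nothing in the labels says that replicates were separate mice, and p-values here measure only the spread between libraries, which may be technical.

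As background, IL-1α and IL-1β (Il1a, Il1b) bind the receptor IL-1R1 (Il1r1), which then recruits the accessory chain IL-1RAcP (Il1rap) and signals through MyD88 to NF-κB. The pathway has its own brakes: the antagonist IL-1Ra (Il1rn) occupies the receptor without a signal, and the decoy receptor IL-1R2 (Il1r2) binds IL-1 but lacks a signalling domain. IL-33 (Il33) is a nuclear alarmin released by damaged cells that acts through ST2 (Il1rl1) with the same accessory chain, and IL-18 uses the chains encoded by Il18r1 and Il18rap. Il1b is made mainly by activated myeloid cells, and the receptor genes Il1r2, Il1r1, Il1rl2, Il1rl1, Il18r1 and Il18rap lie next to each other on chromosome 1.

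The libraries differed in the length of their peak lists, with 27530 to 45014 peaks for H3K9cr and 15988 to 32760 for H3K9ac, covering 29.4 to 64.6 Mb and 17.7 to 51.1 Mb. The ACSS2-/- UUO H3K9cr replicate 2 had the shortest H3K9cr list. Read depth is unknown from such lists. In 4 libraries the number in the peak names differed from the replicate number of the label, and the labels were followed. Across all genes the covered length was shorter in UUO than in control libraries for both marks, with a median difference in means of -308.5 bp for H3K9cr and -1088.25 bp for H3K9ac. Around Acss2 itself, peaks covered 760 to 10367 bp in the ACSS2-/- libraries and 869 to 5564 bp in the WT libraries, which does not check the genotype labels because a histone mark around a gene need not follow its deletion.

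The 250 bases before a start site are shown for 5 members whose start regions are described below: Il18r1, whose start region had peaks only after UUO, the second start of Il33, whose region had peaks only in H3K9cr controls, Il1b, whose peaks lay mostly upstream of the start and not over it, Il1r2, whose start region overlapped in length between UUO and control, and the second start of Il1r1, with a peak in all 14 libraries. The sequences are from RefSeq (GRCm38.p6), read 5′ to 3′ towards the gene, and capitals mark matches to the motifs searched.
Il18r1, first start (chr1:40465302-40465551, plus strand): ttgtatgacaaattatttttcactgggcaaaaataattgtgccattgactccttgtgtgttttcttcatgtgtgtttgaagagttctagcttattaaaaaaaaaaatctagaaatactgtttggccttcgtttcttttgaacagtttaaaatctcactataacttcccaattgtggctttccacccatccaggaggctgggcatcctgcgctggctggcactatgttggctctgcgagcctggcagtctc
Il33, second start (chr19:29945540-29945789, plus strand): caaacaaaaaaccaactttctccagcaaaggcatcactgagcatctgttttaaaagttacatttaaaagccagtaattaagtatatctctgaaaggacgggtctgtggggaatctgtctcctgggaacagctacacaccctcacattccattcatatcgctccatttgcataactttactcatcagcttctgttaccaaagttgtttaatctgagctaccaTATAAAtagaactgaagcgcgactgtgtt
Il1b (chr2:129371140-129371389, minus strand): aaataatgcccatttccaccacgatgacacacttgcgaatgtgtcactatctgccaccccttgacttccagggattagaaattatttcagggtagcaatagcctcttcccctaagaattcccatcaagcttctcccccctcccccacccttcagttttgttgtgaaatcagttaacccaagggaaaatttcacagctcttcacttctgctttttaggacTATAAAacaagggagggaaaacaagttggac
Il1r2 (chr1:40085843-40086092, plus strand): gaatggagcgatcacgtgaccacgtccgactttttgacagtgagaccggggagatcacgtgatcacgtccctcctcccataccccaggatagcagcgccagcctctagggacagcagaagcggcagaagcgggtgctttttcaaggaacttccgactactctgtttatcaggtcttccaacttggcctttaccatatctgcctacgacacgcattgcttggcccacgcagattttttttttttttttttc
Il1r1, second start (chr1:40266336-40266585, plus strand): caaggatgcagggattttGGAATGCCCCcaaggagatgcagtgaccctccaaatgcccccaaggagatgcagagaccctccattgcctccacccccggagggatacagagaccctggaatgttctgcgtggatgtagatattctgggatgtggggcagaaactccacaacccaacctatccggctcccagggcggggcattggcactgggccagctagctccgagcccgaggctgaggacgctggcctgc

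All 10 members were found in the promoter table, with 17 start sites. Searched on both strands were the NF-κB pattern GGGNNNNNCC, the AP-1 site TGANTCA, the PU.1 core GAGGAA, the ETS core CCGGAA, the TATA box TATAAA and the HNF1 site GTTAAT. The PU.1 and ETS cores share the letters GGAA. The TATA box stood 31 bases before the Il1b start and 29 bases before the second Il33 start, counted from its first base, and 12.4% of the 32851 promoters of the table held it within the same 250 bases. The NF-κB pattern began 232 bases before the second Il1r1 start on the minus strand, and 45.8% of all promoters held it. None of these letters was found before the Il1r2 start or the first Il18r1 start. Il18r1 start 3 (position 40466006, sequence not shown) had the NF-κB pattern 58 bases and the PU.1 core 6 bases before it, both on the minus strand. H3K9cr peaks covered all 250 bases before start 3 in each of the 4 UUO libraries and 0 bp in the controls. Before start 1 they covered 87 and 0 bp in WT UUO and 31 and 0 bp in ACSS2-/- UUO. Over the 17 member promoters, 5 held the NF-κB pattern, 4 the TATA box, 3 the PU.1 core (23.3% of all promoters), 2 the AP-1 site (6.75%) and 0 the ETS core (12.03%) or the HNF1 site (6.43%). These are matches of letters and not shown binding sites.

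H3K9cr peaks appeared around Il1b only in obstructed kidneys. Peaks covered 4365 bp of the Il1b window in WT UUO replicate 1, 1905 bp in WT UUO replicate 2, 3670 bp in ACSS2-/- UUO replicate 1 and 0 bp in ACSS2-/- UUO replicate 2. All 4 control H3K9cr libraries and all 6 H3K9ac libraries had no peak there. Since 1 UUO library was at 0 like the controls, the groups overlapped (2485 ± 1954 against 0 bp, SD, n = 4 each, exact two-sided permutation p = 0.143, 0.337 after Benjamini-Hochberg adjustment over all 31599 genes tested). The smallest p that 4 against 4 libraries allow is 0.0286. Without ACSS2-/- UUO replicate 2, which had the shortest H3K9cr list, Il1b was longer in every UUO library than in every control, as were 6.99% of all genes tested.

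The Il1b peaks fell into separate regions, most of them upstream of the start at position 129371139 of chromosome 2. The nearest of those shared by several libraries, chr2:129372365-129374214, was centred 2.15 kb upstream, over the antisense long noncoding gene Il1bos, with 390, 513 and 1645 bp covered in the 3 UUO libraries that had Il1b peaks. A region centred 9.27 kb upstream (chr2:129379383-129381431) had 1941, 1392 and 817 bp in the same libraries, and a region 16.36 kb upstream (chr2:129386871-129388133) had 1263 bp in WT UUO replicate 1 and 366 bp in ACSS2-/- UUO replicate 1. No peak of any library covered the Il1b start base. The peak closest to the start inside the gene was 508 bp long, in ACSS2-/- UUO replicate 1 alone.

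**Figure D1:**
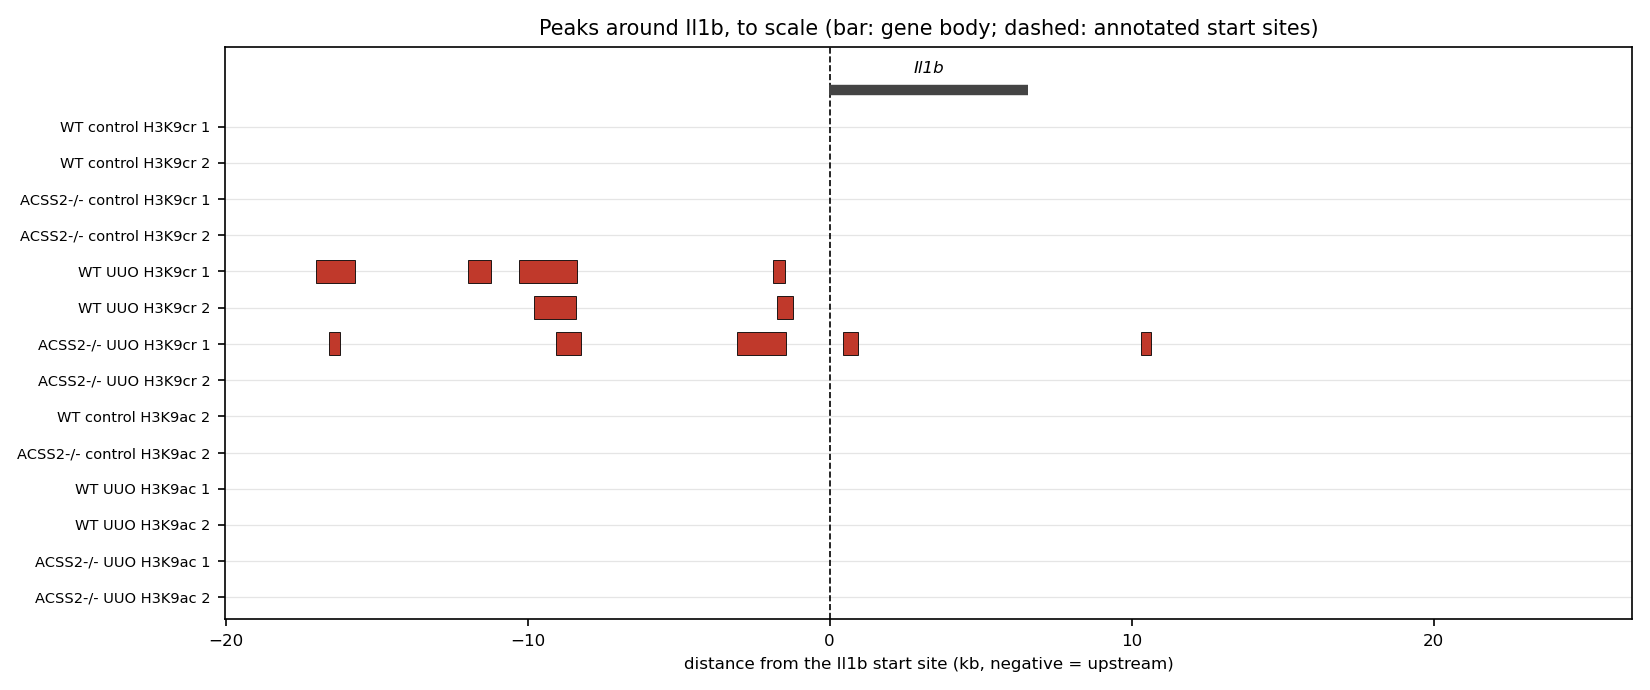
Peaks of the 14 libraries (rows; H3K9cr controls blue, H3K9cr UUO red, H3K9ac controls grey, H3K9ac UUO purple) by distance from the Il1b start in kb, drawn to scale. Only 3 of the 4 UUO H3K9cr rows hold peaks, and most of these lie upstream of the start.

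The other ligands of the IL-1 receptor had little of either mark of their own. The window of Il1a, the gene of the membrane-bound alarmin IL-1α, was covered over 848 to 1353 bp in control and 1160 to 1256 bp in UUO H3K9cr libraries. Nearly all of this came from a peak in all 14 libraries over the start of the neighbouring Ckap2l (chr2:129296497-129298288). A single peak of 442 bp, in WT UUO replicate 2, lay inside Il1a. Likewise, all covered bases of the Il1rn window came from 1 region at the start of the neighbour Psd4 (chr2:24366927-24368249), and no library had a peak within 3 kb of any of the 3 Il1rn starts. In that region the H3K9cr lengths were 0, 347, 595 and 764 bp in controls and 1050, 1069, 818 and 0 bp in UUO, and the H3K9ac length was 415 bp in ACSS2-/- UUO replicate 2 and 0 in the other 5 libraries.

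Il33 carried H3K9cr in every library. Peaks covered 5788 and 5399 bp in WT controls, 6928 and 3085 bp in ACSS2-/- controls, 3575 and 3290 bp in WT UUO, and 3365 and 1628 bp in ACSS2-/- UUO. The groups overlapped because 1 control, ACSS2-/- replicate 2, lay within the range of the UUO libraries (5300 ± 1613 in controls against 2965 ± 899 bp in UUO, n = 4 each, exact permutation p = 0.114, adjusted 0.314). For H3K9ac the Il33 window held 2949 bp in the WT control and 2527 bp in the ACSS2-/- control. After UUO it held 542 and 325 bp in WT and 344 and 3225 bp in ACSS2-/- kidneys, so 3 of 4 lay far below the controls and 1 above them.

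The annotation gives Il33 more than 1 start, and they differed in their peaks. The region at the first start (chr19:29924773-29928114) had a peak in all 14 libraries. The region over the second start (chr19:29945541-29947017), within the gene, had H3K9cr peaks of 1052, 492, 1477 and 852 bp in the 4 controls and none in the 4 UUO libraries, and no H3K9ac peak in any of 6 libraries. The start base itself was under a peak in 3 of the 4 controls. Of all merged regions with H3K9cr, 1.91% were present in all 4 controls and absent from all 4 UUO libraries, and this was the single such region among the 37 merged regions of the 10 windows. A region 2.65 kb beyond that start (chr19:29947739-29949149) kept peaks in all 8 H3K9cr libraries, of 1071 to 1274 bp in controls and 645 to 1086 bp in UUO, and had H3K9ac peaks in both controls and in 1 of 4 UUO libraries.

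**Figure D2:**
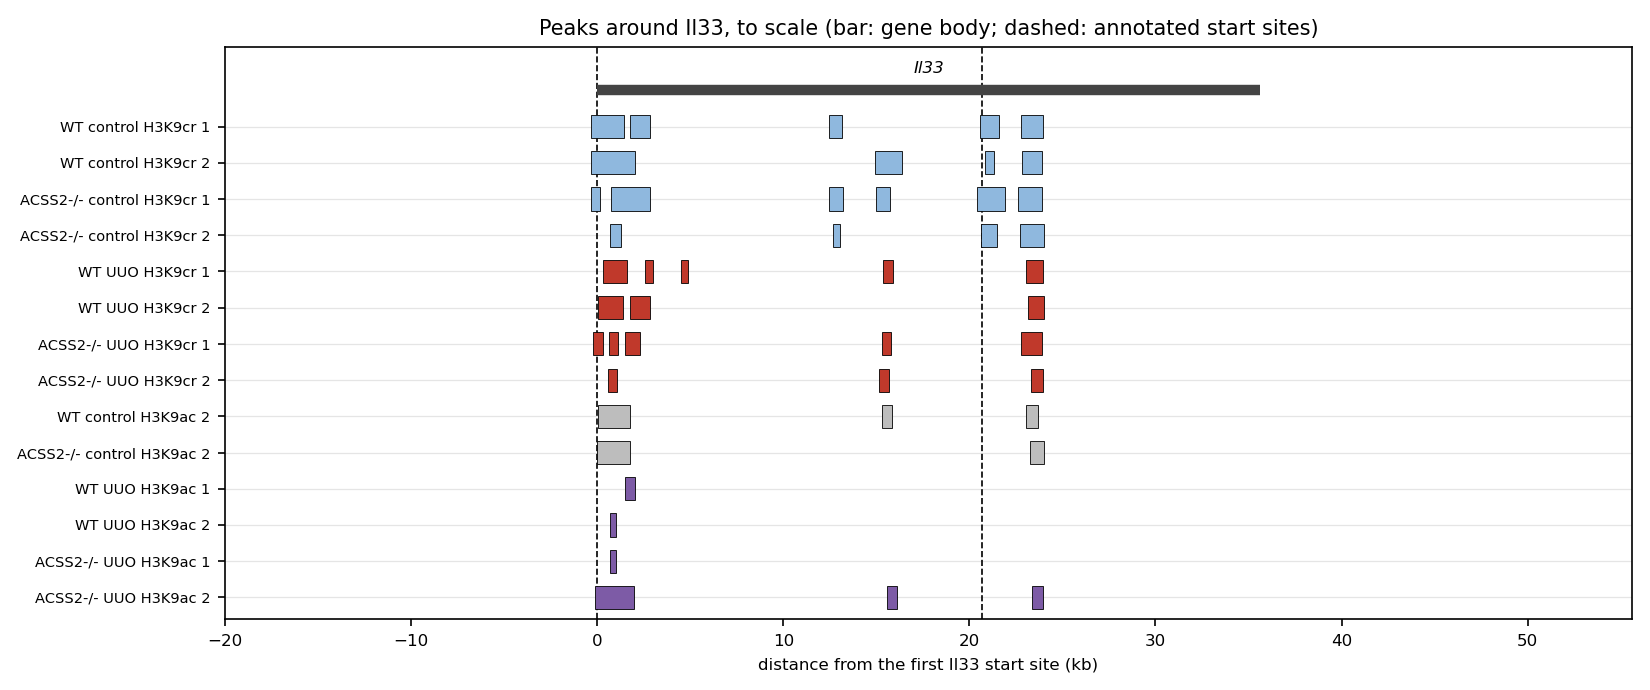
Peaks of the 14 libraries (rows, colours by mark and operation: H3K9cr controls blue, H3K9cr UUO red, H3K9ac controls grey, H3K9ac UUO purple) by distance from the first Il33 start in kb, to scale, with dashed lines at the annotated starts. Peaks at the second start appear in the 4 H3K9cr control rows only.

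Among the receptor genes, Il1r2, Il1rl1 and Il18r1 had a longer covered length of H3K9cr in every UUO library than in every control library. These were 3 of the 10 members, against 2.23% of all genes tested that were longer in all UUO libraries, and 0 members were shorter in all of them, against 18.1% of all genes. Il1rl1 and Il18r1 were called largely on the same peaks, as described below, and are not separate results. When covered length was taken as a share of all covered bases of a library, the shares over all genes were 15.2% longer and 8.43% shorter, and 4 members were longer, Il1r1 in addition. No gene of the genome passed the adjusted exact permutation test (smallest adjusted p = 0.141), while 6413 of 31599 had an unadjusted p of 0.0286. Without ACSS2-/- UUO replicate 2 there were 5 members, with Il1b and Il1rn in addition, against 6.99% of all genes. Il1rap was shorter in every UUO library without WT control replicate 1, as were 25.8% of all genes, and Il33 without ACSS2-/- control replicate 2, as were 20%. Over the 10 members the median difference in means was 404.5 bp, against -308.5 bp over all genes.

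Il1r2, the decoy receptor, was covered over 425 and 568 bp in WT controls, 622 and 376 bp in ACSS2-/- controls, 1621 and 1205 bp in WT UUO, and 1028 and 1507 bp in ACSS2-/- UUO. The lowest UUO library was above the highest control (1340 ± 272 against 498 ± 116 bp, n = 4 each, difference 842.5 bp, exact permutation p = 0.0286, adjusted 0.141). The region at its start (chr1:40085324-40086333), which also covers the start of the noncoding gene Gm16894, held peaks in 3 of 4 controls and 4 of 4 UUO libraries. Its lengths were 425, 568, 622 and 0 bp in controls and 589, 833, 718 and 733 bp in UUO. In this region alone the groups overlapped. The start base itself lay under a peak in 1 of 4 controls and in 4 of 4 UUO libraries. Further peaks inside the gene, 29.96 and 32.13 kb from the start, were found in UUO libraries only, of 368 and 774 bp in the former and 664 bp in the latter. A region 1.18 kb from the start had 376 bp in ACSS2-/- control replicate 2 and 372 bp in WT UUO replicate 2. A peak of 310 bp, 47.72 kb from the start and beyond the gene, was found in ACSS2-/- UUO replicate 1. For H3K9ac the Il1r2 values were lower after UUO in WT kidneys, with 660 and 717 bp in the WT and ACSS2-/- controls, 0 and 0 bp in WT UUO, and 512 and 735 bp in ACSS2-/- UUO. In WT H3K9ac libraries alone, 82.2% of all genes were shorter in both UUO libraries than in the single control. Their whole peak lists covered 17.7 and 21.2 Mb after UUO and 34.2 Mb in that control.

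Il18r1, which encodes the ligand-binding chain of the IL-18 receptor, had no H3K9cr peak in its window in any control. After UUO 3513 and 2756 bp were covered in WT and 1482 and 1000 bp in ACSS2-/- kidneys (2188 ± 1153 bp, n = 4, exact permutation p = 0.0286, adjusted 0.141). Its window overlaps that of Il1rl1, the gene of the IL-33 receptor ST2, which had 3077, 2756, 787 and 1000 bp in the same 4 libraries and 0 bp in the controls. These are largely the same peaks, counted for both genes. The main region covers all 3 Il18r1 starts (chr1:40465452-40468069) with 2284, 2132, 787 and 414 bp, and a region 10.68 kb beyond the third start (chr1:40476286-40477089) had 793, 624, 0 and 586 bp. The region at the start was the single merged region of the 10 windows with H3K9cr in all 4 UUO and no control libraries, against 0.535% of all merged regions with H3K9cr.

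The ST2 gene had no peak within 3 kb of either of its annotated starts, at positions 40429570 and 40439629, in any library. When each peak was given only to the gene with the nearest protein-coding start, an alternative chosen after seeing the data, Il1r2 and Il18r1 kept their non-overlapping groups and Il1rl1 did not. These were 2 members, against 2.52% of all genes that were then longer in all UUO libraries. The H3K9ac mark was seen at the Il18r1 start in WT UUO replicate 2, over 2259 bp, and in ACSS2-/- UUO replicate 2, over 510 bp, and in neither control. All 3 H3K9cr calls were lost when only the longest 15988 peaks of each library were used, where Il1r1 was the single member longer in every UUO library. Of the H3K9cr libraries, the Il18r1 start peak then remained in both WT UUO libraries, with 2284 and 2132 bp, and in none of the others.

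Il1r1, the signalling receptor of IL-1, carried both marks in all groups. Its window also holds the peak over the start of the neighbour Il1rl2 (chr1:40324335-40326254), present in all 14 libraries, which made up 857 to 1485 bp of the H3K9cr length in controls and 1243 to 1840 bp in UUO. With that peak included, H3K9cr covered 3037 and 4637 bp in WT controls, 6580 and 4282 bp in ACSS2-/- controls, 5326 and 5743 bp in WT UUO, and 5342 and 4130 bp in ACSS2-/- UUO. Both UUO values exceeded both control values in WT kidneys, as was so for 23.0% of all genes, while the ACSS2-/- values of the operations were mixed. Over both genotypes the groups overlapped (5135 ± 697 against 4634 ± 1468 bp, n = 4 each, exact permutation p = 0.629, adjusted 0.828), and the difference turned to -695 bp in ACSS2-/- kidneys alone to -31.1 bp without WT control replicate 1, and to -1.75 bp when each peak was given to the nearest protein-coding start. The region at the second start (chr1:40265948-40268043) had a peak in all 14 libraries, of 1097 to 1959 bp in control and 1258 to 1882 bp in UUO H3K9cr. The region at the first start (chr1:40224348-40226015) held peaks in 7 of 8 H3K9cr and 2 of 6 H3K9ac libraries.

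Il1rap, the shared accessory chain, had a peak at its start in all 14 libraries (chr16:26581053-26582928). H3K9cr covered 701 to 1786 bp in controls and 857 to 1028 bp in UUO, and the groups overlapped (adjusted exact permutation p = 0.379). Il18rap, the accessory chain of the IL-18 receptor, had single H3K9cr peaks of 436 bp in WT UUO replicate 1 and 695 bp in ACSS2-/- UUO replicate 1, and no peak in the other 12 libraries.

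Of the 17 start sites of the members, 12 had a peak within 3 kb in at least 1 library. Among them 3 had H3K9cr in all 4 UUO and no control libraries, and 0 had the reverse pattern. The shares were 0.576% and 0.549% of all start sites with an H3K9cr peak within 3 kb in at least 1 library. These 3 are all of Il18r1 and lie under the same merged region, so they count the same peaks. With a peak over the start base itself these numbers were 2 (Il18r1, against 0.319%) and 0 (against 0.709%), the shares being of start sites under an H3K9cr peak in at least 1 library. A peak within 3 kb was found in all 14 libraries for 3 start sites, the first of Il33, the second of Il1r1 and that of Il1rap, against 61.9% of all start sites with any peak. Of the 37 merged regions in the windows, 5 had a peak in all 14 libraries, against 13.3% of all regions, and 16 in 1 library only, against 44.7%.

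**Figure D3:**
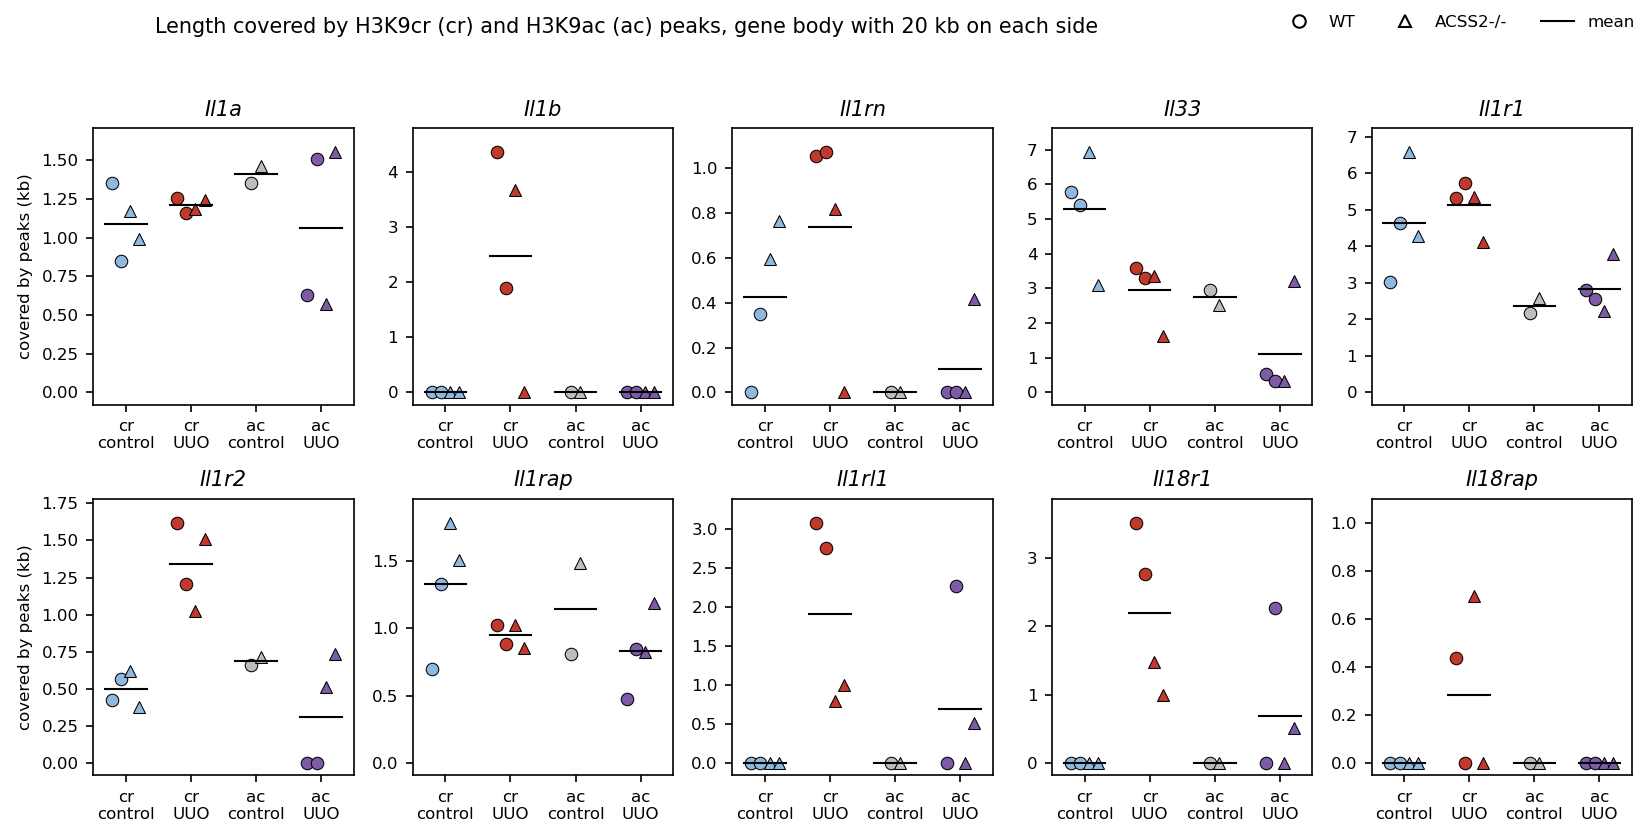
Covered length in kb of each member's window in every library, by mark (cr, H3K9cr; ac, H3K9ac) and operation; circles are WT, triangles ACSS2-/-, and lines are means. Il1r2, Il1rl1 and Il18r1 are the panels where all 4 UUO H3K9cr points lie above all 4 controls, and Il1b has 3 of 4.

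Set per length, as the percent of the window under H3K9cr peaks, the members ranked in controls with Il33 first (7.01 ± 2.13%, SD, n = 4), then Il1r1 with the Il1rl2 peak (3.47 ± 1.10%) and the Il1a window with its neighbour's peak (2.16 ± 0.43%). Il1rn, Il1rap and Il1r2 followed at 0.781 ± 0.608, 0.706 ± 0.244 and 0.618 ± 0.144%, within each other's spread, and Il1b, Il1rl1, Il18r1 and Il18rap were at 0. After UUO Il1b stood first (5.33 ± 4.19%), followed by Il33 (3.92 ± 1.19%), Il1r1 (3.84 ± 0.52%), Il18r1 (2.91 ± 1.53%), Il1a (2.39 ± 0.09%), Il1rl1 (1.89 ± 1.17%), Il1r2 (1.66 ± 0.34%) and Il1rn (1.34 ± 0.92%). Il1rap (0.503 ± 0.048%) and Il18rap (0.370 ± 0.450%) had the lowest means. All 10 members formed a run in which each differed from the next by less than the larger of their SDs.

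Over the receptor cluster as a whole, 507.016 kb from 20 kb before Il1r2 to 20 kb beyond Il18rap (chr1:40064692-40571707), H3K9cr peaks covered 3462, 5205, 7202 and 4658 bp in the WT and ACSS2-/- controls and 10796, 9704, 7852 and 6637 bp in the UUO libraries. The lowest UUO library was below the highest control. The cluster divided into 2 parts that differed in the controls. From Il1r2 to Il1rl2 every library of both marks had peaks. From Il1rl1 to Il18rap, 186.844 kb, no control library of either mark had any, all 4 UUO H3K9cr libraries had 1000 to 3513 bp, and 2 of 4 UUO H3K9ac libraries had 510 and 2259 bp. All of these peaks lie in the Il18r1 window, so its result is given here again. Of 21 merged regions in the cluster, 2 had a peak in all 14 libraries, at the second Il1r1 start and at the start of Il1rl2, the IL-36 receptor gene.

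**Figure D4:**
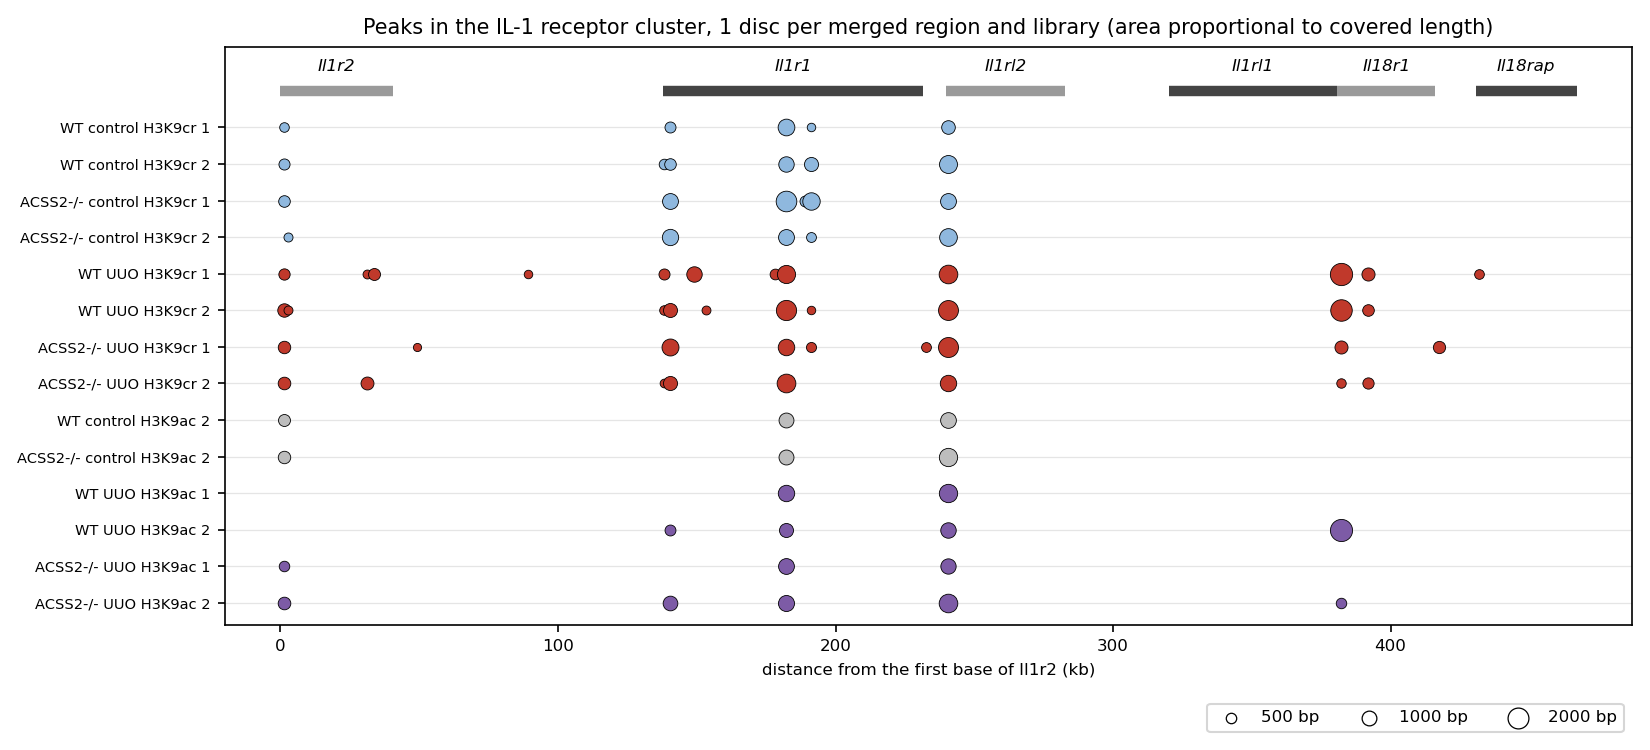
The receptor cluster by distance from the first base of Il1r2 in kb, with 1 row per library and 1 disc per merged region, its area proportional to the covered length (H3K9cr controls blue, H3K9cr UUO red, H3K9ac controls grey, H3K9ac UUO purple; gene bodies above). The stretch from Il1rl1 to Il18rap is empty in the control rows and holds peaks in the 4 UUO H3K9cr rows.

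Comparing the marks within the 4 groups, only Il1r1 had a longer H3K9cr than H3K9ac length in every library pair of every group, 1 of 10 members against 10.4% of all genes, and 0 members went the other way, against 0.713%. With covered length as a share of a library's total, these shares were 5.63% and 21.0%, and no member was called in either direction. The H3K9ac lengths of Il1r1 were 2162 and 2574 bp in controls and 2796, 2558, 2234 and 3777 bp in UUO, of which the Il1rl2 start peak made up 1139 and 1543 bp in controls and 1553, 1102, 1080 and 1597 bp in UUO. With peaks given to the nearest start Il1r1 was still called, as were 8.08% of all genes. The mean difference over groups was 2280 bp (exact permutation of the marks within groups p = 0.00926, adjusted 0.0676 over 32549 genes), where 2565 genes passed the adjusted threshold and none of the members did. The Il1r1 call was also lost with the longest 15988 peaks of each library. Il33 (2208.75 bp) and Il1rn (528.5 bp) followed, both with an adjusted p of 0.121. Of the 37 merged regions, 26 had H3K9cr only, 11 had both marks, and 0 had H3K9ac alone, against 50.9%, 35.5% and 13.6% of all merged regions. H3K9cr had 8 libraries and H3K9ac 6, and 16 of the 26 regions came from 1 library. Il1b and Il18rap had no H3K9ac peak in any library.

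Of the members, 8 had an H3K9ac peak, and their UUO and control groups overlapped. None of the 8 was longer or shorter in all UUO libraries, against 0.297% longer and 47.3% shorter over all genes, or 20.9% and 12.1% with lengths as a share of a library's total, where Il1r1 was longer. With 4 against 2 libraries no p can fall below 0.0667. Leaving out ACSS2-/- UUO replicate 2 made Il33 and Il1r2 shorter in every remaining UUO library, as were 71.1% of all genes.

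The question of the genotype comparison was what the loss of ACSS2 did to the marks. In obstructed kidneys Il1rn, Il1rl1 and Il18r1 had shorter H3K9cr lengths in both ACSS2-/- libraries than in both WT libraries, 3 of 10 members against 24.1% of all genes, and 0 were longer, against 6.35%. With lengths as a share of a library's total, 14.2% of all genes were shorter and 18.0% longer, Il1rn, Il1rl1 and Il18r1 were shorter and Il1rap was longer. For Il1rl1 the values were 787 and 1000 bp in ACSS2-/- and 3077 and 2756 bp in WT kidneys, for Il18r1 1482 and 1000 against 3513 and 2756 bp, and for the Il1rn window 818 and 0 against 1050 and 1069 bp. The Il1rn lengths came from the region at the Psd4 start, and Il1rl1 and Il18r1 counted largely the same peaks. With each peak given to the nearest protein-coding start, the shorter members were Il1r1 and Il18r1, against 23.3% of all genes. For 2 against 2 libraries the smallest possible exact p is 0.333. Il1b was at 3670 and 0 bp in ACSS2-/- and at 4365 and 1905 bp in WT UUO, so that the genotypes overlapped. Il1r2 (1028 and 1507 against 1621 and 1205 bp) and Il1r1 (5342 and 4130 against 5326 and 5743 bp) overlapped as well.

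Whether UUO had a different effect on H3K9cr in the 2 genotypes was tested for each of the 10 members by permuting genotype labels within each operation (36 arrangements, two-sided). The difference between UUO and control means was 2916.5 bp in WT and 893.5 bp in ACSS2-/- kidneys for Il1rl1 and 3134.5 and 1241 bp for Il18r1, with an exact p of 0.333 for both. For Il1b it was 3135 and 1835 bp (exact p = 0.667), and for Il1r1 1697.5 and -695 bp (exact p = 0.222). The smallest p that these arrangements allow is 0.0556, so no member could pass 0.05. Il1b, Il1rl1 and Il18r1 were at 0 bp in every H3K9cr control. For them only the UUO labels changed the value, and the smallest possible p was 0.333. The Il1rn window had an exact p of 0.0556, and there the difference was 886 bp in WT and -270.5 bp in ACSS2-/- kidneys.

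In control kidneys H3K9cr was longer in both ACSS2-/- libraries for Il1rn, again from the Psd4 start region (595 and 764 against 0 and 347 bp), and for Il1rap (1786 and 1506 against 701 and 1332 bp). These were 2 of the 6 members with a peak in these libraries against 46.5% of all genes, and 0 were shorter, against 2.83%. As a share of a library's total the shares over all genes were 12.9% and 25.1%, Il1rn stayed longer, and Il33 and Il1r2 were shorter. For H3K9ac after UUO, Il1r2 was longer in both ACSS2-/- libraries (512 and 735 against 0 and 0 bp), 1 of the 8 members with a peak in these libraries against 28.6% of all genes, and 0 were shorter, against 1.58%. As a share of the total, 14.3% were longer and 16.6% shorter, with Il1r2 still longer. H3K9ac in the control kidneys had 1 library per genotype and was not compared.

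Of 12 other genes of the family, 11 were annotated, 4 of them under older symbols, and 7 had an H3K9cr peak in at least 1 library. In UUO against control kidneys 1 of these 7 was longer in all UUO libraries and 0 were shorter, against 2.23% and 18.1% of all genes. It was Il18bp, which encodes the binding protein that neutralises IL-18, with 1333, 1494, 1830 and 2065 bp in controls and 2324, 2427, 2326 and 2593 bp in UUO. Its H3K9ac lengths were 2262 and 2263 bp in controls and 550 to 1393 bp in UUO, shorter in every UUO library like 47.3% of all genes. Il18 was at 748 to 2795 bp in control and 907 to 1999 bp in UUO H3K9cr libraries. Among 20 genes downstream of the receptors, 0 were longer and 4 shorter in all UUO H3K9cr libraries, a share close to the 18.1% of all genes that were shorter. The 4 were the adaptor Myd88 (8317 to 9762 bp in controls, 6315 to 7006 bp in UUO), the TAK1 partner Tab1, the IκB kinase Chuk and the p38 kinase Mapk14. None passed the adjusted exact permutation test.

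Markers of other cells moved with the same comparison, in which 2.23% of all genes were longer and 18.1% shorter in all UUO H3K9cr libraries. The summed H3K9cr length of 13 myeloid marker genes was 17693 to 35647 bp in controls and 41613 to 95735 bp in UUO, with 6 of 13 longer in all UUO libraries (C1qa, C1qb, C1qc, Tyrobp and Ptprc among them) and the neutrophil genes S100a8 and S100a9 without a peak. C1qa, C1qb and C1qc had equal lengths in every library, of 15662, 11456, 12481 and 5701 bp in UUO H3K9cr. These are the same peaks, counted for each of these genes in the sum and among the 6. By library the myeloid sums after UUO were 95735, 70190, 76873 and 41613 bp, in the order WT 1, WT 2, ACSS2-/- 1 and ACSS2-/- 2, and the last of these is the library without an Il1b peak. It also had the lowest UUO sum of the injured tubule, stromal, endothelial, distal nephron and T and NK cell markers. The proximal tubule sum was lowest in WT 2. Of the injured tubule markers, Havcr1 had 5222, 1511, 2672 and 0 bp in the same order and 0 bp in every control. T and NK cell markers summed to 12247 to 16184 bp in controls and 13115 to 33207 bp in UUO, with 2 of 7 longer (Il2rb and Cd3e). After UUO, their sums were 31212 and 33207 bp in WT and 15734 and 13115 bp in ACSS2-/- kidneys, and 6 of 7 were shorter in both ACSS2-/- libraries, against 24.1% of all genes. Cd3e and Cd3d, both among these 6, had similar lengths in WT UUO (5796 and 6780 bp, and 5904 and 6723 bp). Peaks in overlapping windows were counted for each gene. Proximal tubule markers summed to 59174 to 117943 bp in controls and 17001 to 29251 bp in UUO, with 6 of 8 shorter in all UUO libraries. Stromal markers had 1 of 7 longer (Col1a1), endothelial markers 3 of 6 shorter, distal nephron markers 3 of 6 shorter and injured tubule markers 0 of 6 either way. In ACSS2-/- against WT UUO, 3 of 6 injured tubule, 2 of 13 myeloid, 1 of 7 stromal and 0 of 6 endothelial markers were shorter and none longer. There 1 of 8 proximal tubule and 1 of 6 distal nephron markers were shorter, and 1 of each list was longer, against 6.35% of all genes. The part of the cell composition in the results on the members was not tested.

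The protein-coding genes whose H3K9cr length was most like that of Il1b over the 8 H3K9cr libraries were Pirb (Pearson r = 0.996), Tmem200a (0.991), Tnfsf8 (0.990), Jaml (0.990) and Gm5544 (0.989). For Tnfsf8, the gene of the CD30 ligand, the lengths were 2103 and 1087 bp in WT UUO, 2254 and 0 bp in ACSS2-/- UUO and 0 bp in all controls. Those most like Il1r1 were Antxr1 (0.966), Twsg1 (0.964), Rpl13a (0.963), Nedd8 (0.961) and Top2a (0.948). These are descriptions over 8 libraries that also share the length of their peak lists.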

How the data were processed

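Reads were cleaned of adapters by the authors and mapped with Bowtie2 (mm10, per the labels). They dropped organelle, poorly mapped and duplicate reads, and called peaks with MACS2 in each library alone. Versions and the control used for peak calling are not given in the sources used here. The deposited lists, 14 in all, give genome positions of peaks and no score. Genes and start sites came from RefSeq GRCm38.p6, the same assembly as mm10.

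For every gene the bp covered by peaks in its body with 20 kb outside each end were summed per library. Groups were called different where no library of one overlapped the other. Exact two-sided permutation tests were adjusted by Benjamini-Hochberg over all genes with a peak in at least 1 compared library. Overlapping peaks of the 14 lists, by at least 1 bp, were merged into regions. All 10 members were named, with list genes called for H3K9cr in UUO against control (at most 5 per list and direction), the 5 genes most like Il1b and Il1r1, and regions at member starts or present in 1 operation only. The members and lists were chosen with earlier results of these data known.

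Python 3.11.15, numpy 2.4.6 and scipy 1.17.1 were used. The overlap code was checked against bedtools 2.31.1 (0 of 49943 windows unequal) and the test on simulated data. Alternatives were windows of 10 and 50 kb, the longest 15988 peaks, covered length as a share of the total, whole peaks with at least 50% inside, numbers of peaks, a stricter filter on genes, each genotype alone, each library left out, and replicate blocks. Only the histone mark libraries were used here.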

Additional observations from a re-analysis of the deposited data

How the results depend on the processing

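Counts of members without overlap between groups follow, with the share of all genes called the same way in parentheses. For H3K9cr in UUO against control (3 longer, 0 shorter), the longest peaks alone gave 1 longer (3.28%). WT libraries alone gave 6 longer (23.0%) and 1 shorter, Il33 (27.0%), and ACSS2-/- libraries alone gave 4 longer, Il1a, Il1r2, Il1rl1 and Il18r1 (4.03%), and 1 shorter, Il1rap (54.0%). Leaving out each library gave 3 to 5 longer (2.37 to 6.99%) and 0 to 1 shorter (18.7 to 25.8%). For H3K9cr in ACSS2-/- against WT UUO (3 shorter, 0 longer), the 50 kb window gave 5 shorter (23.9%), the share of the total 1 longer (18.0%), and the number of peaks 1 shorter, Il18r1 (7.31%). With the 10 kb window the 3 shorter were Il1r1, Il1rl1 and Il18r1 (23.8%). Peaks given to the nearest start gave 2 shorter, Il1r1 and Il18r1 (23.3%). Libraries left out gave 4 to 7 shorter (29.0 to 58.5%) and 0 to 2 longer (9.63 to 31.4%). For control kidneys (2 longer, 0 shorter), 1 was longer with the 10 kb window (43.5%), the share of the total (12.9%) and peaks given to the nearest start (41.8%), and 0 with the longest peaks (35.0%) or numbers of peaks (12.9%). The longest peaks gave 1 shorter (7.35%) and the share 2 shorter (25.1%), and libraries left out gave 2 to 5 longer (55.4 to 77.4%) and 0 to 2 shorter (5.03 to 15.9%). For H3K9ac in UUO against control (0 either way), 1 was longer with the 50 kb window (0.25%), the longest peaks (1.03%), the share (20.9%), peaks at the nearest start (0.701%) or WT libraries alone (4.08%), and 2 were shorter in WT (82.2%) and 1 in ACSS2-/- libraries alone (84.6%). Libraries left out gave 0 to 1 longer (0.310 to 1.97%) and 0 to 2 shorter (47.8 to 82.2%). For H3K9ac in ACSS2-/- against WT UUO (1 longer), libraries left out gave 1 to 6 longer (33.2 to 84.6%) and 0 to 2 shorter (1.99 to 28.9%). For the marks (Il1r1 alone longer), the longest peaks (5.26%) and the share (5.63%) gave 0, and libraries left out 1 to 2 (10.5 to 14.9%). The cause of these changes was not tested, except that leaving out a library makes separation of the groups easier by construction.

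The labels do not say that a replicate number marks a shared mouse, and differences between replicates correlated at 0.449 (H3K9cr) and 0.372 (H3K9ac) between the genotypes after UUO, at -0.147 for H3K9cr controls, and at -0.536 between the marks in ACSS2-/- UUO. With a replicate block the counts were 5 shorter for H3K9cr in ACSS2-/- UUO, Il1b and Il33 in addition (40.3% of all genes), 3 longer for H3K9ac in UUO against control (2.74%) and 2 longer for H3K9ac in ACSS2-/- UUO (48.0%), and 3, 2 and 1 longer in the other comparisons, as without it. The H3K9ac controls were all replicate 2, so in UUO against control the block dropped both replicate 1 UUO libraries. Its count (Il1a, Il1rl1 and Il18r1) therefore compares 2 UUO with 2 control libraries. Crossed pairings, chosen after seeing the data, gave 3 longer in H3K9cr controls (58.3%) and 2 for the marks (15.7%), and pairs with an equal number in their peak names, also chosen then, gave 2 for the marks (16.0%).

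Of single members, the H3K9cr difference between UUO and control changed sign for Il1r1 with peaks at the nearest start (-1.75 bp) and in ACSS2-/- libraries alone (-695 bp), and ranged from -31.1 to 1150 bp over libraries left out. That of Il1rn did so in ACSS2-/- libraries alone (-270.5 bp). The difference between marks changed sign for Il1a with the 50 kb window (628 bp) and with peaks at the nearest start (55.2 bp), ranging from -209 to 37.2 bp over libraries left out, and for Il1rap with the longest peaks (-254 bp) and the share of the total (-219 bp). Over all alternatives the adjusted p of a member in these 2 comparisons lay between 0.0580 and 1. A filter on genes with a peak in at least 2 libraries moved the 2.23% of genes longer in UUO H3K9cr to 2.39%. Peak lists without heights or read depth limit what a difference in covered length shows, and an absent peak is not an absent mark.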
